A study of Homo sapiens with 6 samples.

Results

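The 9 genes described here encode DNA polymerases and regulators of translesion synthesis, and they are POLH, POLI, POLK, POLQ, REV1, REV3L, MAD2L2, RAD18 and PRIMPOL. They were taken by symbol from a table of 62754 human genes, and all 9 were found and passed the filter on low values that left 17951 genes to test. The table holds RNA sequencing of HPNE-hTERT, a non-malignant human pancreatic ductal cell line immortalized with telomerase. One group of 3 libraries came from cells given FOLFIRINOX for 4 days to induce senescence, a mixture of 5-fluorouracil at 10 µM, oxaliplatin at 5 µM and SN-38, the active form of irinotecan, at 25 nM. The other group of 3 libraries came from cells of the same line given the vehicle DMSO and taken at the same 4 days. All libraries come from this single line. No label names separate cultures, so the p-values speak only of the spread among these 6 libraries, which may be technical. In bulk RNA, fewer cells of a kind and less RNA per cell cannot be told apart.

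Replicative DNA polymerases stall at damaged bases such as the crosslinks that platinum drugs leave in DNA. The ubiquitin ligase RAD18 then marks the sliding clamp PCNA, and specialised polymerases with roomier active sites are recruited and copy past the lesion. In the usual view a Y-family polymerase (POLH, POLI, POLK or REV1) inserts a base opposite the lesion, and polymerase zeta, built from the catalytic subunit REV3L and the adaptor MAD2L2, extends from it. POLQ can also bypass lesions, and is best known for joining broken ends through short homologies. PRIMPOL restarts synthesis beyond a lesion by making a new primer.

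Among the called genes, POLH and REV3L were higher in FOLFIRINOX cells, 2.04-fold and 1.98-fold in mean level, and MAD2L2 and POLQ were lower. POLQ had the greatest difference of the 9, with a mean 82.1-fold lower. POLI, POLK, REV1, RAD18 and PRIMPOL did not pass the threshold in the fit without pairing. The 2 genes called higher and the 2 called lower stand beside 11.4% and 12.2% of all genes tested, called with limma at an adjusted p under 0.05, and the 4 of 9 in either direction beside 23.6%. Library numbers P14, P15 and P19 recur in both groups and pair the libraries. With that pairing as a replicate block, 4 members were called higher (POLH, POLI, POLK and REV3L) and 3 lower (POLQ, MAD2L2 and RAD18), beside 22.3% and 21.8% of all genes, or 44.1% in either direction. Counted on recovered reads, edgeR called 2 members higher and 2 lower (background 10.1%, 13.3% and 23.4% in either direction), and DESeq2 called 3 and 2 (9.5%, 9.89% and 19.4%). The groups did not overlap for 3 members that were higher (POLH, POLI and REV3L) and 2 that were lower (MAD2L2 and POLQ), beside 19.9%, 19.6% and, together, 39.5% of all genes. The median log2 difference was 0.24 over the 9 members and 0.02 over all genes tested.

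**Figure D1:**
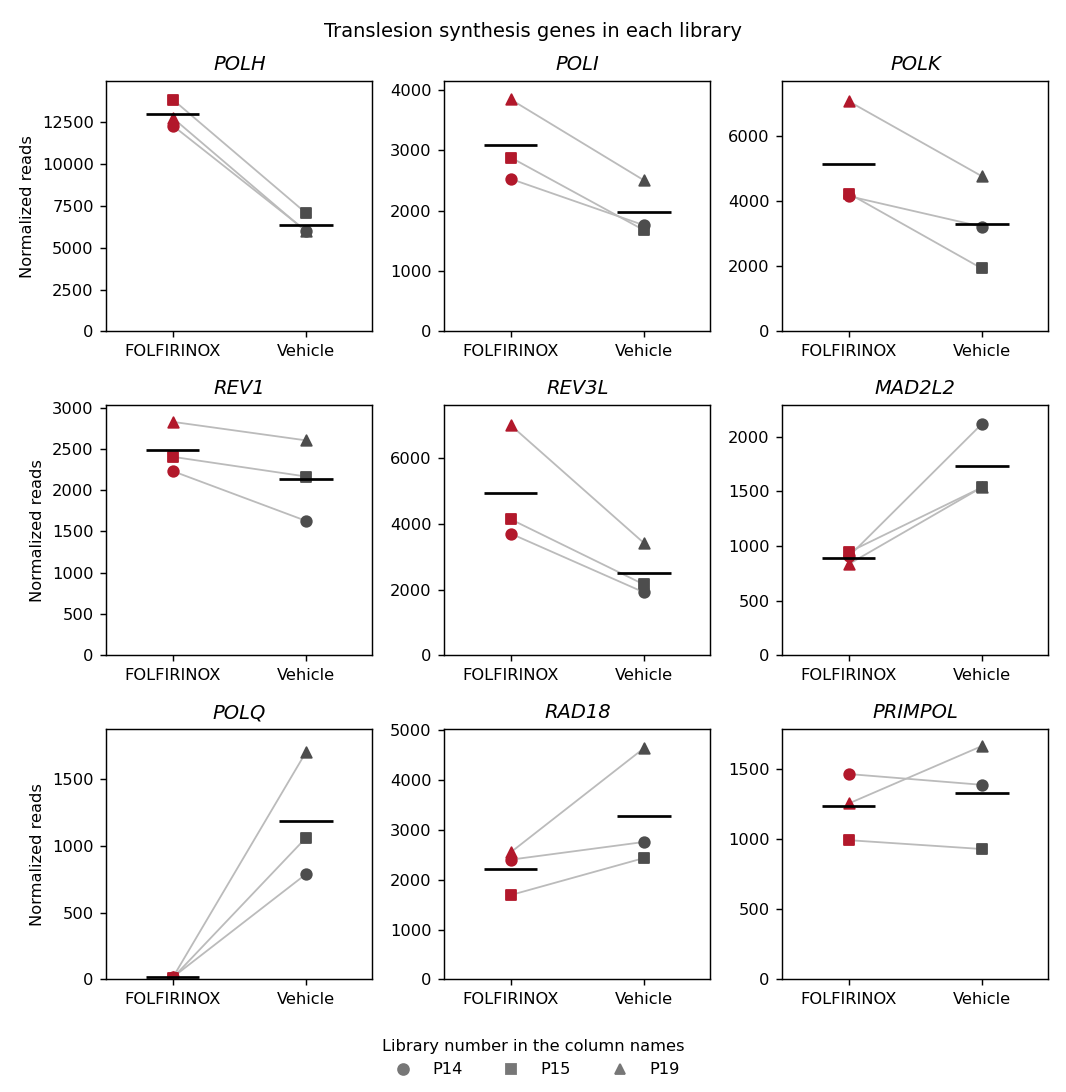
Normalized reads (vertical axes, each from 0) of the 9 genes in the FOLFIRINOX and Vehicle libraries; each symbol is 1 library, grey lines join libraries of the same P number, and black bars are means of 3. POLH, POLI and REV3L lie above Vehicle in every FOLFIRINOX library, and MAD2L2 and POLQ lie below it.

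The promoter of POLQ is shown because that gene differed most, and it is the only one of 11 member promoters holding both of 2 cell cycle motifs that were searched. The motifs were the CHR element (TTTGAA) and an E2F element (GGCGGGAA), on both strands. Promoters were those of RefSeq on GRCh38.p14, from 250 bases before to 50 after each start. All 9 members matched, and REV3L and MAD2L2 have 2 promoters each. The POLQ window is chr3:121545939-121546238, minus strand, with CHR and E2F letters in capitals.
POLQ: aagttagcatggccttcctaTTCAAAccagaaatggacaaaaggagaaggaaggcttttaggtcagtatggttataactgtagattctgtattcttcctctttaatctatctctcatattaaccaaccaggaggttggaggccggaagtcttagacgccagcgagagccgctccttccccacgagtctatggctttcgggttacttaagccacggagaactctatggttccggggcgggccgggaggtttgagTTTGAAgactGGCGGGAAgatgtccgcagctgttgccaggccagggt
One CHR match lies at positions 4 to 9 after the start, counted from 1 at the start base, and the E2F match at 14 to 21, with no overlap between them. The other CHR match, on the opposite strand, lies at −230 to −225. Of 35116 promoters of the same length, 15.2% hold the CHR letters, 3.16% the E2F letters and 0.262% both. A CCAAT box (CCAAT) and a GC box (GGGCGG) were searched too. The POLQ window holds 0 matches to the CCAAT box and 1 to the GC box. Of all promoters, 34.6% hold the CCAAT box and 45.0% the GC box.

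The promoter of POLI also holds the E2F letters, and that of PRIMPOL holds the CHR letters. Neither gene was called without pairing, but a member that was called higher also holds the E2F letters in a promoter. The POLI and PRIMPOL stretches are shown for comparison with the POLQ promoter, with the motif in capitals. Not every member promoter that holds one of the motifs is shown.
POLI: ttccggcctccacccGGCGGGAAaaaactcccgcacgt
PRIMPOL: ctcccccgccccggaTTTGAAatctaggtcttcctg
They lie at chr18:54269345-54269382 and chr4:184649711-184649746, both on the plus strand. The decamer half-site bound by p53 was found in none of the 11 member windows and in 6.63% of all promoters. A match is a run of letters and not a measured binding site, and a missing one says only that the letters are not in that window.

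POLH encodes polymerase eta, which copies past ultraviolet dimers and platinum crosslinks, is lost in the variant form of xeroderma pigmentosum and is known as a p53 target gene. The gene lies at chr6:43576150-43615660 on the plus strand (ENSG00000170734, GENCODE 29 on GRCh38, as for the genes below). Normalized reads, always listed for P14, P15 and P19 in that order, were 12281, 13839 and 12737 in FOLFIRINOX, against 6012, 7069 and 5968 in Vehicle. Every FOLFIRINOX library was above every Vehicle library, and the 3 ratios within a P number were 2.04, 1.96 and 2.13. The means were 12952 ± 801 in FOLFIRINOX and 6349 ± 623 in Vehicle cells (SD, n = 3 each). The log2 difference was 1.03 ± 0.15 (SE, limma on log2(value + 1), adjusted p = 0.000647), with a 95% interval of 0.70 to 1.36. The authors' deposited table gives POLH a log2 fold change of 1.03 with a standard error of 0.18.

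POLI encodes polymerase iota, an error-prone inserter, and lies at chr18:54269404-54321266 on the plus strand (ENSG00000101751). It had 2523, 2878 and 3838 normalized reads in FOLFIRINOX, against 1758, 1676 and 2501 in Vehicle. The groups did not overlap, although the lowest FOLFIRINOX library and the highest Vehicle library were close. The log2 difference was 0.64 ± 0.21 (95% interval 0.17 to 1.11, limma adjusted p = 0.0513), and pairing by replicate block gave 9.5e-05. The adjusted p without the block fell below 0.05 under 8 of the planned settings, among them a pseudocount of 8 (0.0473) and DESeq2 on the recovered reads (0.0322).

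POLK encodes polymerase kappa, which bypasses bulky adducts on guanine, and lies at chr5:75511756-75601144 on the plus strand (ENSG00000122008). Its levels were 4159, 4238 and 7073 in FOLFIRINOX P14, P15 and P19, and 3219.9, 1935 and 4770.3 in Vehicle. The groups overlapped, because Vehicle P19 exceeded FOLFIRINOX P14 and P15, but the FOLFIRINOX library was the higher in each of the 3 pairs. The log2 difference was 0.69 ± 0.31 (95% interval 0.01 to 1.37, limma adjusted p = 0.134), and 6.6e-05 was the adjusted p with the replicate block. Without pairing, the difference was 0.35 on leaving out Vehicle P15 (adjusted p = 0.421), 0.44 without FOLFIRINOX P19 (0.372) and 1.00 without Vehicle P19 (0.0216). Within P numbers the ratio was 1.29 for P14, 2.19 for P15 and 1.48 for P19.

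REV1 encodes a deoxycytidyl transferase that also serves as the scaffold on which the other Y-family enzymes and polymerase zeta meet. It lies at chr2:99400475-99490035 on the minus strand (ENSG00000135945). Levels were 2230.3, 2404 and 2827 in FOLFIRINOX, against 1629, 2166 and 2603 in Vehicle. The groups overlapped, and the log2 difference of 0.24 ± 0.20 did not pass (95% interval −0.20 to 0.68, limma adjusted p = 0.415). It did not pass with the replicate block either (adjusted p = 0.126), where the interval was −0.02 to 0.50.

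The Y family was also compared within each library, as the share of its summed level per kilobase of exon that each gene took. POLH took 77.4%, 78.4% and 69.9% in FOLFIRINOX P14, P15 and P19, and 69.4%, 74.9% and 60.0% in Vehicle. It was the higher in FOLFIRINOX in each pair, but the groups overlapped, and the 7.14-point difference of means had an exact two-sided permutation p of 0.2, where 3 against 3 libraries cannot go below 0.1. REV1 took 6.41%, 6.20% and 7.07% in FOLFIRINOX, against 8.57%, 10.5% and 11.9% in Vehicle, without overlap (exact two-sided permutation p = 0.1, or 0.4 adjusted over the 4 shares). The summed level itself was 4479 to 5144 normalized reads per kilobase in FOLFIRINOX and 2447 to 2809 in Vehicle. These shares and sums depend on the exon lengths given to the genes, and RefSeq gives both POLH and POLK longer ends. With the longer end for POLH only, its share averaged 56.4% ± 5.96 in FOLFIRINOX and 47.8% ± 8.55 in Vehicle (SD, n = 3 each). POLK kept its shorter length there, although RefSeq extends it by 8847 bases, so these averages mix annotations. A longer POLK would raise the POLH share, and shares with both genes lengthened are not given here. With either extension the summed levels would be lower than those printed.

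Polymerase zeta extends the ends that the inserters leave, and its dedicated subunits went opposite ways. REV3L, the catalytic subunit, lies at chr6:111299028-111483715 on the minus strand (ENSG00000009413). It had 3707, 4143 and 7007 normalized reads in FOLFIRINOX, against 1921, 2160.2 and 3422 in Vehicle. P19 was the highest library of both groups, and the 3 ratios within a P number were 1.93, 1.92 and 2.05. The log2 difference was 0.97 ± 0.27 (95% interval 0.37 to 1.57, limma adjusted p = 0.0249), and the replicate block gave 5.5e-08. Without pairing, the call was lost on leaving out 1 library, either P19 of FOLFIRINOX (adjusted p = 0.0847) or P14 (0.103) or P15 (0.0705) of Vehicle. It was also lost without both P14 libraries (0.0760) or both P15 libraries (0.0576), and without the mean-variance trend (0.0859).

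MAD2L2, also called REV7, is the adaptor that links REV3L to REV1, and it lies at chr1:11674480-11691650 on the minus strand (ENSG00000116670). It had 905, 944 and 835 normalized reads in FOLFIRINOX, against 2117, 1536 and 1537 in Vehicle. All FOLFIRINOX libraries were below all Vehicle libraries, with means of 895 ± 55.4 and 1730.1 ± 335. The log2 difference was −0.94 ± 0.18 (95% interval −1.34 to −0.53, limma adjusted p = 0.00404). The call held without any single library and without both libraries of any P number, with adjusted p no higher than 0.0323.

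Per kilobase of exon, the REV3L level over the MAD2L2 level was 1.10, 1.17 and 2.25 in FOLFIRINOX, against 0.243, 0.376 and 0.595 in Vehicle. The means differed 3.72-fold. The groups could not overlap, because every FOLFIRINOX library was above every Vehicle library for REV3L and below it for MAD2L2. The ratio therefore restates those 2 differences and is not a separate test. Polymerase zeta also uses POLD2 and POLD3, accessory subunits of the replicative polymerase delta, which are named here after their values were seen. POLD2 averaged 3242 ± 277 in FOLFIRINOX and 4856 ± 628 in Vehicle (log2 difference −0.58, limma adjusted p = 0.0261). POLD3 averaged 1359 ± 55.0 in FOLFIRINOX and 3186 ± 782 in Vehicle (−1.20, adjusted p = 0.00115), so the 3 subunits other than REV3L were all called lower.

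**Figure D2:**
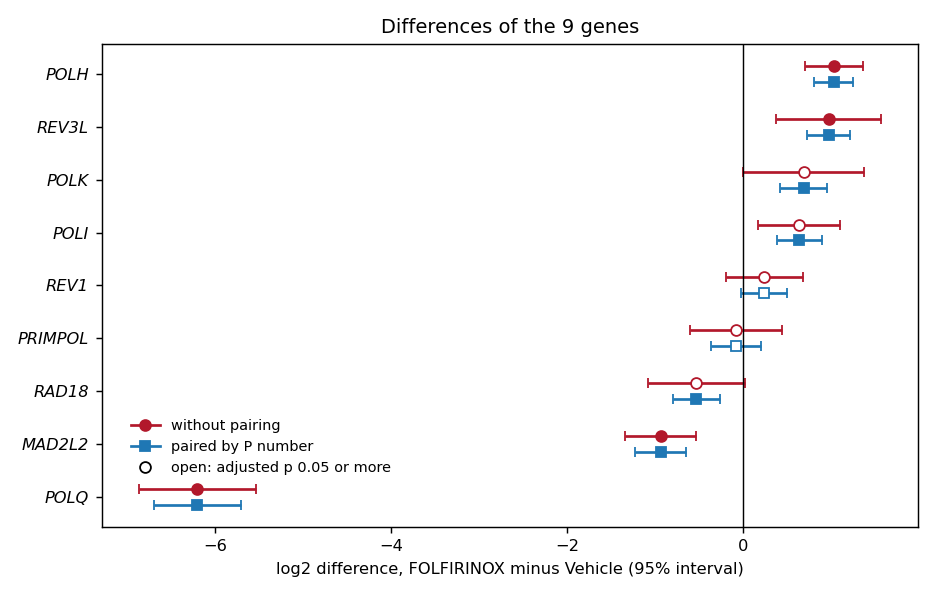
Log2 difference (horizontal axis, FOLFIRINOX minus Vehicle) of the 9 genes with its 95% interval, from the fit without pairing (circles) and with pairing by P number (squares); open symbols have an adjusted p of 0.05 or more. The interval of POLK narrows from 0.01 to 1.37 without pairing to 0.42 to 0.96 with it, and REV1 and PRIMPOL have open symbols in both.

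POLQ encodes polymerase theta, an A-family polymerase with a helicase domain, and lies at chr3:121431427-121546641 on the minus strand (ENSG00000051341). It had 16.5, 11.8 and 14.9 normalized reads in FOLFIRINOX, against 788, 1060.0 and 1701 in Vehicle. The FOLFIRINOX values rest on 16, 12 and 16 reads, and the Vehicle values on 769, 999 and 1820. Of nonzero counts below 50, 72.3% to 74.8% were even in each library, so independent fragments of POLQ may be fewer than these reads. The cause of that excess was not tested. The log2 difference was −6.20 ± 0.30 (95% interval −6.87 to −5.54, limma adjusted p = 1.4e-07), and only 0.24% of genes tested, or 43, were called lower with a difference at least as low. The scale with 1 added to each value understates this change, and the authors' deposited table gives POLQ −6.36 with a standard error of 0.35. MKI67, the Ki-67 proliferation antigen, averaged 30.2 ± 6.65 in FOLFIRINOX and 13874 ± 3569 in Vehicle in the same libraries.

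RAD18, the ligase that attaches ubiquitin to PCNA, lies at chr3:8775402-8963773 on the minus strand (ENSG00000070950). It had 2404, 1694 and 2553 normalized reads in FOLFIRINOX, against 2759, 2436 and 4641 in Vehicle. FOLFIRINOX was the lower in each pair, by a ratio of 0.871 for P14, 0.695 for P15 and 0.550 for P19. The groups overlapped, and the log2 difference of −0.53 ± 0.25 did not pass without pairing (95% interval −1.08 to 0.03, limma adjusted p = 0.158). It passed under the replicate block (adjusted p = 0.00149) and with the GC trend of each library removed (0.0247). Without pairing, omitting P19 of Vehicle brought the difference to −0.25 (adjusted p = 0.417), and omitting P15 of FOLFIRINOX to −0.35 (0.401).

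PRIMPOL, which reprimes DNA synthesis, lies at chr4:184649613-184694963 on the plus strand (ENSG00000164306). It had 1464, 992 and 1254 normalized reads in FOLFIRINOX, against 1387, 929 and 1664 in Vehicle. The groups overlapped fully, with FOLFIRINOX higher in 2 pairs and lower in 1, and the log2 difference of −0.08 ± 0.24 did not pass (95% interval −0.60 to 0.44, limma adjusted p = 0.840). Its sign turned with common-total (0.031) and quantile scaling (0.046). PRIMPOL shares 346 of its 2843 exonic bases with CENPU, a kinetochore gene on the other strand that had 89.5 to 178 normalized reads in FOLFIRINOX and 1565 to 3279 in Vehicle. No source used here gives the strand setting of the counting, and reads of that stretch cannot be assigned to one gene.

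Other overlaps took a smaller share of the member's exons. REV1 shares 852 of 7769 exonic bases with EIF5B, which had a log2 difference of 0.14. REV3L shares 117 of 12425 with the antisense RNA TRAF3IP2-AS1, which had 448 to 568 normalized reads in FOLFIRINOX and 193 to 222 in Vehicle. MAD2L2, POLQ and RAD18 had no exonic overlap with another gene in that annotation.

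Several members varied with the P number in both groups. P19 was the highest of its group for 5 members in FOLFIRINOX (POLI, POLK, REV1, REV3L and RAD18) and for 7 in Vehicle, where POLQ and PRIMPOL joined them. No such share over all genes is given here, so this cannot be called particular to the members. For REV3L the P19 library exceeded the mean of the other 2 by 0.84 in FOLFIRINOX and 0.75 in Vehicle on the log2 scale, and for POLK by 0.75 and 0.93. POLH and MAD2L2 were not highest in P19 in either group. The labels do not say what the P number is.

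Levels of different genes were compared per kilobase of exon. POLH was the highest of the 9, with 3659 ± 226 normalized reads per kilobase in FOLFIRINOX and 1794 ± 176 in Vehicle. RefSeq extends POLH by 4863 bases at its end beyond GENCODE 29, and with that length its levels were 1541 and 756. These were still above every library of the other 8 at their GENCODE 29 lengths. POLQ was the lowest, with 1.53 ± 0.253 in FOLFIRINOX and 126 ± 49.9 in Vehicle. In FOLFIRINOX the order between them was POLK, PRIMPOL, REV3L, POLI, REV1, RAD18 and MAD2L2 (566 down to 269), and the libraries of every neighbouring pair among these 7 overlapped, while MAD2L2 stood clear of POLQ. In Vehicle it was MAD2L2, RAD18, PRIMPOL, POLK, REV1, POLI and REV3L (520.5 down to 201), again with overlapping neighbours, and there POLQ and REV3L overlapped too. RefSeq also extends POLK, by 8847 bases, so its place is uncertain. For RAD18 the RefSeq end lay at −101673 bases from the GENCODE 29 end, that is, short of it. The RAD18 length was left unchanged, so its place is uncertain too. All these distances are between gene ends and were not shown to be exon throughout.

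Around these 9 genes, lists of related genes written from general knowledge were counted. The list counts stand beside 11.4% of all genes tested called higher and 12.2% called lower without pairing. With the replicate block these shares were 22.3% and 21.8%. Of 17 genes that act on or with PCNA in the ubiquitin switch, 1 was called higher and 4 lower without pairing, and 7 and 6 with the replicate block. PCNA itself had 35328, 29540.4 and 32307 normalized reads in FOLFIRINOX, against 16062, 13272 and 18157 in Vehicle. It was thus higher in every FOLFIRINOX library (log2 difference 1.04 ± 0.16, limma adjusted p = 0.00113), a size close to that of POLH. The genes called lower were DTL, a ligase receptor that turns over proteins bound to PCNA, at −6.05, PCLAF, a PCNA-binding protein, at −5.54, ATAD5, which unloads PCNA, at −2.86, and ZRANB3, a PCNA-binding translocase named after its value was seen, at −0.87.

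The conjugating enzymes that work with RAD18 were not called without pairing. UBE2A averaged 15725 ± 1039 in FOLFIRINOX and 13061 ± 229 in Vehicle (0.27 ± 0.14, limma adjusted p = 0.201, or 0.0441 under the replicate block). UBE2B averaged 7459 ± 1715 in FOLFIRINOX and 5429 ± 897 in Vehicle (0.45 ± 0.20, adjusted p = 0.133, or 0.00179 under the block). USP1, which removes ubiquitin from PCNA, averaged 3215 ± 874 in FOLFIRINOX and 5626 ± 2257 in Vehicle. Its log2 difference of −0.77 ± 0.27 had an adjusted p of 0.0615 without pairing and 3.5e-06 with the block.

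Of 17 replicative polymerase and clamp loader genes, 14 were called lower and 0 higher by limma, with a list median of −1.36. At an unadjusted p under 0.05, by edgeR and by DESeq2 the number higher was also 0, and with the replicate block 15 were lower. POLE2, a subunit of polymerase epsilon, was lowest at −3.86, from 82.7 ± 14.4 in FOLFIRINOX and 1233 ± 311 in Vehicle. RFC3 of the clamp loader and POLA1 of the priming polymerase were at −2.57 and −2.53. The 3 genes not called were POLD4, POLE4 and RFC1, named after their values were seen, at −0.17, −0.42 and −0.05.

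MAD2L2 also works outside polymerase zeta, in the shieldin complex that protects broken ends and as a mitotic regulator. Of 9 such partners 1 was called lower and 0 higher by limma, while the replicate block added MAD2L1BP as lower and SHLD2 as higher, both named after their values were seen. No partner was higher at an unadjusted p under 0.05, by edgeR or by DESeq2. The gene called lower was TRIP13, the ATPase that remodels MAD2L2, with 275 ± 6.96 normalized reads in FOLFIRINOX and 5905 ± 744 in Vehicle (−4.41 ± 0.17, limma adjusted p = 2.3e-08). The list median was −0.04.

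Of 11 partners of POLQ in end joining, 6 were called lower and 1 higher, with a median of −0.76. FEN1, the flap endonuclease, was at −3.45, PARP1, the break sensor that starts this route, at −1.13, and XRCC1, a ligase scaffold, at −0.90. HELQ, a helicase related to the helicase part of POLQ, averaged 1661 ± 191 in FOLFIRINOX and 1059 ± 146 in Vehicle (0.65 ± 0.18, limma adjusted p = 0.0220). The HELQ call did not survive leaving out P14 or P19 of FOLFIRINOX, or P14 or P15 of Vehicle (adjusted p 0.0684 to 0.0849). It was also lost without both P14 (0.145) or both P15 libraries (0.0949), and without the mean-variance trend (0.0505). Of 6 other specialised polymerases 5 were tested and limma called 0 in either direction. At an unadjusted p under 0.05 there was 1 higher, POLN, and 0 lower, and edgeR and DESeq2 called 0. The replicate block gave 2 higher (POLN and POLB) and 1 lower (POLG), all named after their values were seen.

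**Figure D3:**
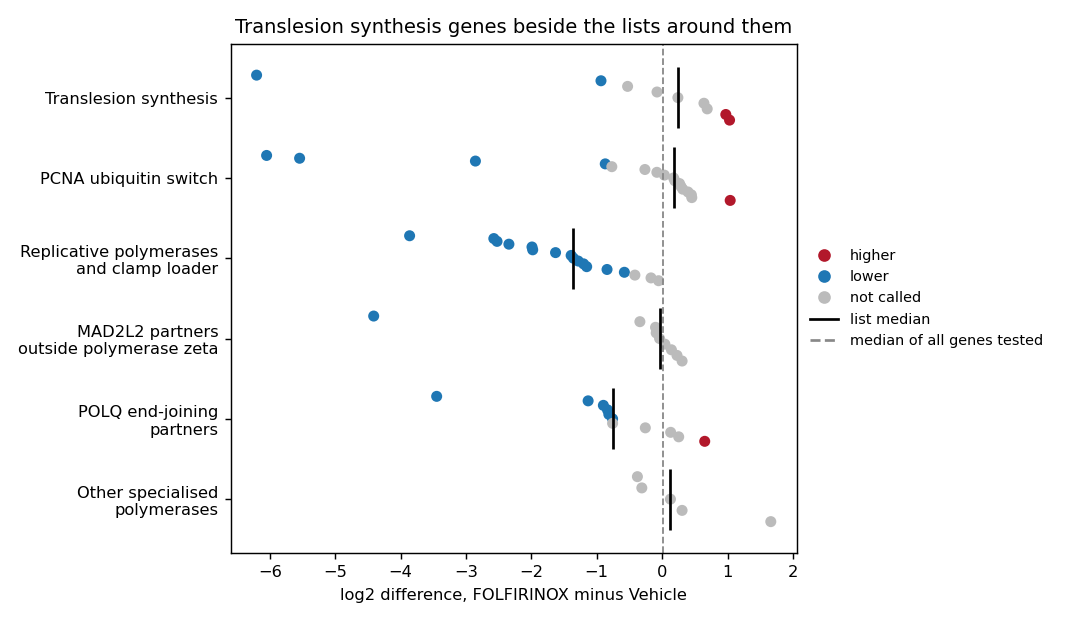
Log2 difference (horizontal axis, FOLFIRINOX minus Vehicle) of each tested gene in the translesion synthesis group and 5 related lists; colours give the call without pairing, black bars the list medians, the dashed line the median of all genes tested. The replicative polymerases have a median of −1.36, while the translesion group has 0.24 with POLQ far to the left at −6.20.

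The genes whose 6-library profiles lay nearest to POLH and POLQ were found by the root mean square difference of log2 deviations, among 12099 other genes with a symbol and a mean of 100 or more. Nearest to POLH were FBXO32, an F-box protein of a ubiquitin ligase (0.0397), CCDC9B (0.0474) and C18orf32 (0.0510). FBXO32 had 1296, 1422 and 1275 normalized reads in FOLFIRINOX, against 626, 688 and 620 in Vehicle. Nearest to POLQ were DTL (0.166), BUB1, a spindle checkpoint kinase (0.232), and CEP55, a cytokinesis scaffold (0.277). DTL had 76.1, 61.0 and 67.2 normalized reads in FOLFIRINOX, against 3656, 4517 and 5738 in Vehicle.

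**Figure D4:**
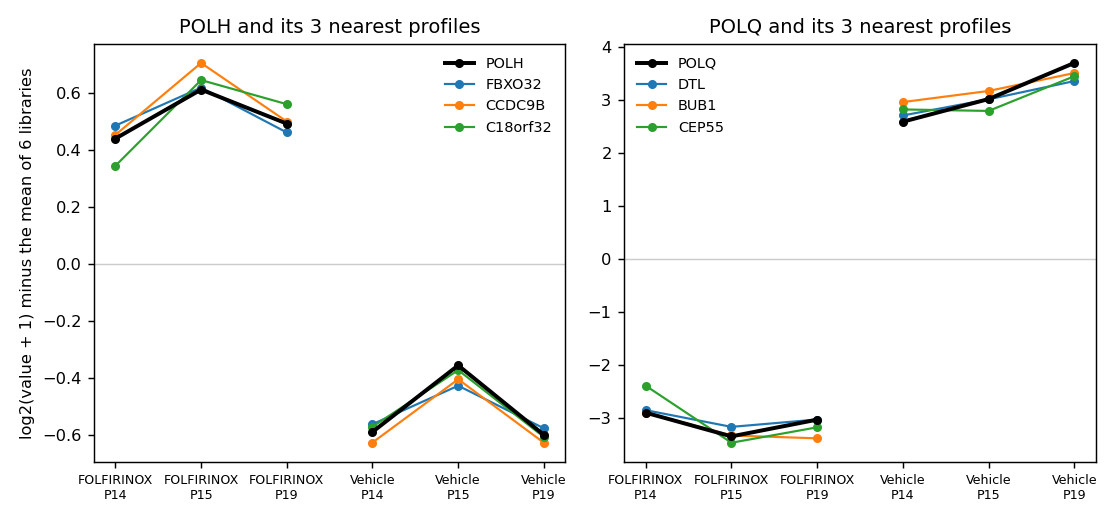
Log2(value + 1) minus the mean of the 6 libraries (vertical axes) for POLH, left, and POLQ, right, each in black with its 3 nearest genes in colour, by library along the horizontal axis. All lines of the left plot lie above 0 in FOLFIRINOX and below 0 in Vehicle, and those of the right plot the reverse.

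Total reads per library were 83981154 to 91992824 in FOLFIRINOX and 86435436 to 97762802 in Vehicle, so counting error was small for all members but POLQ. Mitochondrial ribosomal RNA made up 1.18% to 2.74% of reads in FOLFIRINOX and 0.552% to 0.864% in Vehicle. Its part in these results was not tested. CDKN1A, the p21 gene, averaged 203806 ± 27900.2 in FOLFIRINOX and 22156 ± 4997 in Vehicle. Of 10 ductal epithelial markers 6 passed the filter, with summed levels of 8966 to 9959 in FOLFIRINOX and 11979 to 14440 in Vehicle, while KRT19, EPCAM and CFTR were among those that did not pass, and 2 were called lower and 0 higher. All 8 mesenchymal markers passed and 6 were called lower, with sums of 2520127 to 3065850 in FOLFIRINOX and 3494686 to 5231852 in Vehicle. The part of these markers in the results was not tested. Acinar and endocrine markers were at or near 0 in all libraries, PRSS1, CELA3A, INS and SST at exactly 0. The sum of 4 endothelial markers was 18.7 to 29.8 in FOLFIRINOX and 18.4 to 44.6 in Vehicle, and that of 4 immune markers 30.9 to 83.1 in FOLFIRINOX and 6.37 to 22.4 in Vehicle, with none of these markers called.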

How the data were processed

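Per the labels' protocols, messenger RNA was enriched (NEB) before KAPA HyperPrep library construction. The submitters' processing notes name GRCh38, DESeq2, featureCounts 2.0.6, STAR 2.7.11b and FastQC 0.12.1 as what the authors used. No source used here gives the annotation release, strand setting or DESeq2 version. Per the file headers, the deposited table holds a signal per library (gene counts divided by a size factor), with the authors' log2 fold changes, a score and p-values.

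All signal values (100%) were whole multiples, within 0.001, of the value of 1 read, so reads were recovered for DESeq2 1.42.0 and edgeR 4.0.16. On those reads edgeR called 1820 genes higher and 2389 lower and DESeq2 2208 and 2300. Differences were tested on log2(value + 1) by limma 3.58.1 (trended prior) in the 17951 genes that reached 10 in 3 or more libraries, with p-values adjusted by Benjamini-Hochberg and called under 0.05. It understates changes of low genes and was checked on simulated counts. Those counts were drawn independently for each library, without a P-number effect or an excess of even counts, so the check does not cover these. Limma called 2047 genes higher and 2191 lower, or 2691 and 1696 with common-total scaling. Exon lengths and GC content came from GENCODE 29.

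Columns name the treatment and a P number that is in no label, so they were assigned to groups only. Deviations from group means correlated at 0.257, 0.282 and 0.288 between libraries of the same P number, all above 0.1, and at −0.263 to −0.0272 otherwise, so P number was used as the replicate block.

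Members, gene lists and tests were chosen with earlier results of these data known. Named were the 9 members, PCNA with 5 of its enzymes, the 3 called genes of largest difference per list and direction, MKI67 and CDKN1A, and the 3 nearest profiles of members called at a log2 difference of 1 or more. Also tried were other pseudocounts (0.5 and 8), other filters (none, or 50), other scalings (TMM, quantile, common-total), no trend, edgeR, DESeq2, the block, GC trend removal, and leaving out each library or both P14 libraries. Leaving out both P15 or both P19 libraries, and the longer POLH, were added after seeing the data. One marker gene and 1 promoter stretch are not reported here.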

Additional observations from a re-analysis of the deposited data

How the results depend on the processing

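POLH, POLQ and MAD2L2 kept their direction and their call under all 22 alternatives, with log2 differences of 0.98 to 1.14, −6.56 to −5.67 and −1.05 to −0.75. REV1, at 0.060 to 0.40, was called under none of them. PRIMPOL, never called, changed sign with common-total scaling (0.031), quantile scaling (0.046) and without both P19 libraries (0.086), and ranged from −0.31 to 0.11 when single libraries were left out. POLK ranged from 0.35 to 1.00 (highest adjusted p = 0.421) and was also called without both P19 libraries (0.0330), and RAD18 ranged from −0.71 to −0.25 (highest adjusted p = 0.417). The median log2 difference of all genes tested was 0.13 with common-total scaling, against 0.02.

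With the replicate block, 3995 of all genes were called higher and 3918 lower, and 4369 and 4452 with the GC trend removed as well. Members called higher numbered 4 with the block, with or without that removal, and genes of the 5 other lists called higher 11 with the block alone and 6 with both, against 2. The pairing left the difference in POLH share of the Y family at 7.14 points. Its exact sign-flip p was 0.25, the smallest possible with 3 pairs. Other settings gave that difference as 3.10 to 10.5 points when single libraries were left out, and 8.28 per longest transcript. It was 8.32 without division by length and 8.58 with the longer POLH and POLK left at its shorter length. The block changed the calls of POLI, POLK and RAD18 among the members and of no other member.

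Without the trend 1702 genes were called higher and 1698 lower, with 1 member and 1 listed gene higher. Without both P14 libraries 1021 genes were called higher and 1326 lower, with 1 member and 1 listed gene higher. Without both P15 libraries the counts were 988, 1175, 1 and 1. Leaving out single libraries gave 1201 to 2214 genes higher, 1 to 4 members higher and 1 to 2 listed genes higher. Of 17 genes outside the 9 members that were followed through the alternatives, 13 kept their call under every one and none reversed. Other genes in the text, such as those named after their values were seen, were not among these 17. The cause of these changes was not tested, beyond the fewer libraries in some of the fits. Depth limits POLQ in FOLFIRINOX.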
